A study of Mus musculus with 4 samples.

Results

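The 37 genes of the mouse mitochondrial chromosome were examined in 4 bulk RNA-seq libraries of sorted periosteal cells, 2 from Sfrp4-/- mice and 2 from wild-type (WT) mice. They were all genes that the deposited count sheet places on chromosome MT, out of 54532 genes, and comprised 13 protein genes, 2 rRNA genes and 22 tRNA genes. Both groups carried CtskCre and the mTmG reporter, so that cells in which the Ctsk promoter had driven Cre recombinase, and their descendants, expressed GFP. The tested mice were in addition Sfrp4-/-, lacking a gene for a secreted Wnt-binding protein. Mice were 4 weeks old and untreated, and each library was made from the pooled cells of 3 mice, so the spread between 2 libraries of a genotype is a spread between pools and not between animals. The cells came from the periosteum, the outer sheet of bones, of long bones and were sorted as CD200+ cells carrying GFP, with CD105, 6C3, Thy1.2, Ter119, CD31 and CD45 used to exclude other cells.

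The mitochondrial chromosome is a small circle present in many copies per cell. Both of its strands are transcribed as long precursors, and tRNA sequences between the other genes are cut out to release the mRNAs and rRNAs. Its protein genes encode core subunits of the respiratory chain and of ATP synthase, while all other subunits, and the enzymes that copy and read the chromosome, are made from nuclear genes. Pieces of mitochondrial DNA have also been inserted into nuclear chromosomes during evolution, and some of these copies are annotated as pseudogenes.

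Libraries held 17341775 to 18750003 counts in Sfrp4-/- cells and 17119332 to 17669306 counts in WT cells. Sfrp4, the targeted gene (the labels do not say which part was removed), was at 11.4 and 12.1 CPM in the Sfrp4-/- libraries, against 90.8 and 107.5 CPM in the WT libraries, where CPM is the count scaled to a common library size with composition (TMM) factors. Its edgeR quasi-likelihood adjusted p over all genes was 0.377. The 6 markers of the sorted cells, among them Ctsk, Cd200 and Col1a1, were all detected. The 5 genes used for exclusion summed to 8.85 to 12.5 CPM in Sfrp4-/- and 10.0 to 11.7 CPM in WT libraries, with Thy1 at 0.

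Mitochondrially encoded genes took 0.835% and 2.10% of the counts in Sfrp4-/- replicates 1 and 2, against 0.715% and 1.74% in WT replicates 1 and 2. The 2 libraries numbered 2 were high and the 2 numbered 1 were low, and the genotypes overlapped. The 95% Wilson intervals were at most 0.0067 percentage points to either side, which covers counting error only. Means were 1.47 ± 0.894% in Sfrp4-/- and 1.23 ± 0.725% in WT libraries (SD, n = 2 each), a log2 ratio of 0.26. An exact two-sided permutation test gave p = 0.667, where the smallest p that 2 against 2 libraries allow is 0.333. The sign changed when single libraries were left out. The log2 ratio was -0.56 without Sfrp4-/- replicate 2, -0.25 without WT replicate 1, 0.77 without Sfrp4-/- replicate 1 and 1.04 without WT replicate 2. Each omission leaves unequal replicate numbers in the genotypes, so these signs cannot be read as those of genotype alone. At a given replicate number the share was 1.17 times as high in Sfrp4-/- as in WT cells for replicate 1 and 1.21 times for replicate 2. Between replicate numbers it was 2.51 times as high in replicate 2 as in replicate 1 in Sfrp4-/- cells, and 2.43 times in WT cells. In bulk RNA, a change in the number of cells of a type and a change in RNA per cell cannot be told apart.

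**Figure D1:**
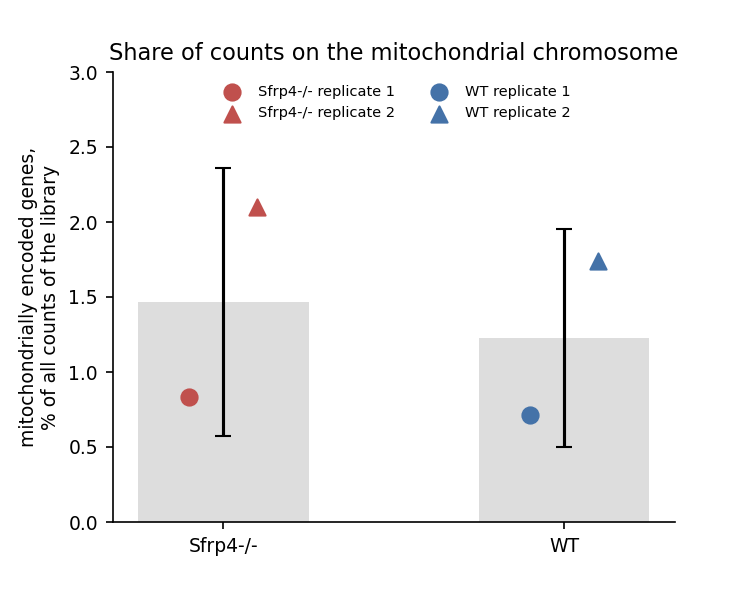
Percent of each library's counts that fell on the 37 mitochondrially encoded genes. Points are libraries (circles replicate 1, triangles replicate 2), bars are means of 2 libraries and error bars are SD. Replicate 2 lies at 2.10% and 1.74%, and replicate 1 at 0.835% and 0.715%, in Sfrp4-/- and WT cells.

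Protein genes made up most of the mitochondrial counts. They took 87.1% and 86.2% in the Sfrp4-/- libraries, against 88.2% and 81.9% in the WT libraries, and the rRNA genes took 12.9% and 13.8%, against 11.8% and 18.1%. tRNA genes took 28 and 62 counts in the Sfrp4-/- libraries and 7 and 23 in the WT libraries. Of the 22 tRNA genes, which are 59 to 75 bases long, 11 had 0 counts in every library. A count of 0 allows up to 3 counts in a library, or 0.000824% to 0.00245% of its mitochondrial counts.

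Relative levels within the chromosome were compared as counts per kilobase of gene length, given as a percent of the sum over the 13 protein genes of the same library. Cytochrome b, mt-Cytb, the only mitochondrially encoded subunit of complex III, stood highest. It had 46506 and 117464 counts in Sfrp4-/- cells and 40210 and 91864 counts in WT cells, or 37.5 ± 2.25% and 38.9 ± 0.538% of the per-kilobase sum (SD, n = 2 each). mt-Co1, the catalytic core of complex IV, followed at 22.5% and 20.3% in Sfrp4-/- and 20.2% and 21.8% in WT cells, and mt-Nd1, a membrane subunit of complex I, at 18.4% and 21.1% in Sfrp4-/- and 18.4% and 20.1% in WT cells. Ranges of mt-Co1 and mt-Nd1 over the 4 libraries overlapped, at 20.2 to 22.5% and 18.4 to 21.1%. mt-Nd4, a proton-pumping complex I subunit, was at 7.93 ± 0.461% in Sfrp4-/- and 8.28 ± 0.913% in WT cells. In every library mt-Cytb was above mt-Co1, and mt-Nd1 above mt-Nd4. Together mt-Cytb, mt-Co1, mt-Nd1 and mt-Nd4 held 85.1 to 88.1% of the per-kilobase sum.

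The complex I subunits mt-Nd5, mt-Nd2 and mt-Nd6 formed a middle tier whose order could not be read. Over the 4 libraries mt-Nd6 averaged 4.09 ± 1.17%, mt-Nd5 3.87 ± 0.444% and mt-Nd2 3.79 ± 0.276% (SD, n = 4), with overlapping ranges. mt-Nd6 is the single protein gene on the minus strand of this chromosome, and 12 lie on the plus strand. Its per-kilobase level relative to mt-Nd5, its neighbour on the other strand, was 1.37 and 1.09 in Sfrp4-/- cells and 0.948 and 0.806 in WT cells. The 2 genes share 14 bases at their ends. Because the libraries are not directional, counts at mt-Nd6 may include transcripts of the opposite strand.

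The 16S rRNA gene mt-Rnr2 was at 10.8% and 11.7% on the same scale in Sfrp4-/- cells, against 9.87% and 16.3% in WT cells. The 12S rRNA gene mt-Rnr1 was far lower, with 799 and 1775 counts in Sfrp4-/- and 486 and 1902 counts in WT cells. Its per-kilobase ratio to mt-Rnr2, which lies beside it with only mt-Tv in between, was 0.0682 and 0.0606 in Sfrp4-/- cells, against 0.0576 and 0.0586 in WT cells. WT replicate 2 was the highest library for both rRNA genes within the chromosome.

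A lower tier held the remaining 6 protein genes, which lie next to each other from mt-Co2 to mt-Nd4l, apart from intervening tRNA genes. Their sum was 1.03% and 1.64% of the per-kilobase total in Sfrp4-/- cells, against 0.862% and 1.39% in WT cells. mt-Atp6, part of the proton channel of ATP synthase, had 347 and 1397 counts in Sfrp4-/- and 263 and 1064 counts in WT cells. mt-Co3, a core subunit of complex IV, had 350 and 1172 counts in Sfrp4-/- and 209 and 779 counts in WT cells. Per kilobase, mt-Rnr1, mt-Atp6 and mt-Co3 ranged over the 4 libraries from 0.569 to 0.955%, 0.432 to 0.780% and 0.298 to 0.569%. The range of mt-Atp6 overlapped those of mt-Rnr1 and mt-Co3. The highest value of mt-Co3, 0.568752%, lay just under the lowest of mt-Rnr1, 0.56878%. Within every library mt-Co3 was below both mt-Atp6 and mt-Rnr1.

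mt-Co2, the complex IV subunit that receives electrons from cytochrome c, lay below these. It had 120 and 475 counts in Sfrp4-/- cells and 79 and 214 counts in WT cells, or 0.210 ± 0.0773% and 0.140 ± 0.0149% of the per-kilobase sum (SD, n = 2 each). Both Sfrp4-/- libraries, at 0.155% and 0.264%, lay above the WT libraries, at 0.129% and 0.150%, and Sfrp4-/- replicate 1 differed from WT replicate 2 by little. In CPM the genotypes overlapped, at 6.48 and 23.1 in Sfrp4-/- and 5.27 and 12.5 in WT cells. The per-kilobase level of mt-Co1, which works in the same complex, was 146 and 76.9 times that of mt-Co2 in Sfrp4-/- cells and 156 and 145 times in WT cells. mt-Co2 was also below mt-Co3 in every library, at 0.393 and 0.465 of its level in Sfrp4-/- and 0.433 and 0.315 in WT cells.

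The 3 remaining protein genes were almost without counts. mt-Atp8, a small ATP synthase subunit, had 3 and 10 counts in Sfrp4-/- cells and 0 in both WT libraries. mt-Nd4l had 6 and 2 counts in Sfrp4-/- and 1 and 4 in WT cells, and mt-Nd3 had 0 and 3 in Sfrp4-/- and 0 and 2 in WT cells. Both encode small complex I subunits. mt-Atp8 shares 43 bases, or 21.1% of its length, with mt-Atp6 on the same strand, and mt-Nd4l shares 7 bases with mt-Nd4. How the counting treated reads in such overlaps is not given in the sources used here.

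**Figure D2:**
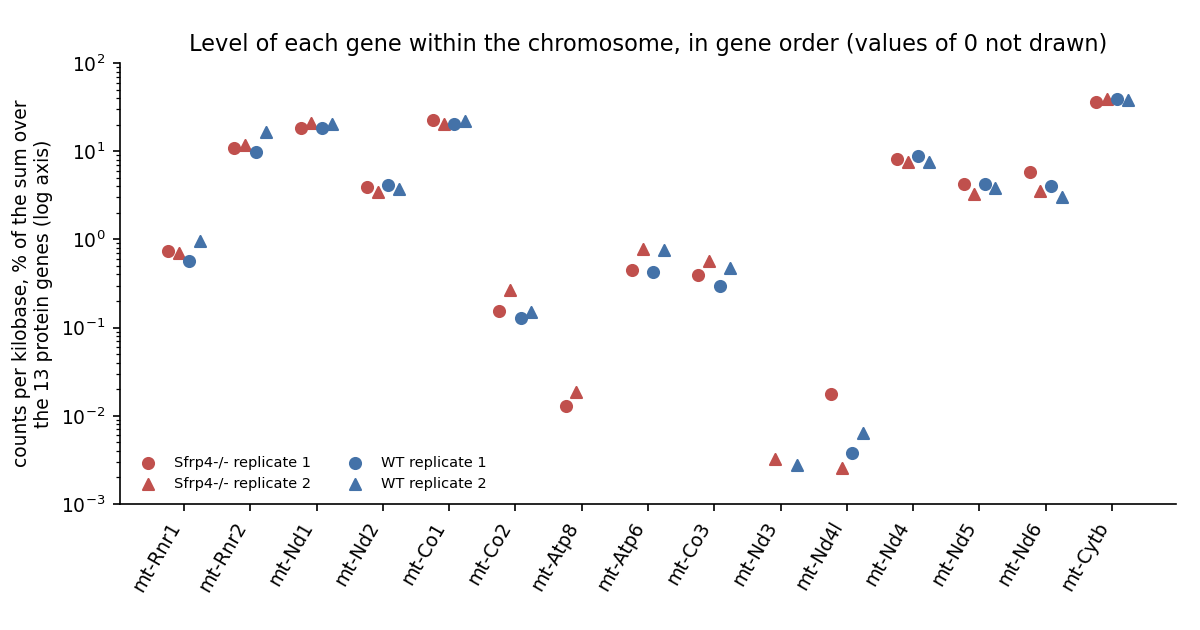
Counts per kilobase of the 13 protein and 2 rRNA genes in their order along the chromosome, as percent of the sum over the protein genes of the library, on a log axis where 0 is not drawn. Circles are replicate 1 and triangles replicate 2 of Sfrp4-/- (red) and WT (blue) cells. The run from mt-Co2 to mt-Nd4l lies below 1% in all 4 libraries, while mt-Co1 and mt-Nd4 on either side lie above 7%.

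Copies of mitochondrial genes in nuclear genes were searched among the GENCODE M21 transcripts of the mouse assembly GRCm38 (mm10). This annotation gives all 37 genes the coordinates of the count sheet. A total of 15 annotated nuclear genes shared at least 1 identical stretch of 50 bases with a mitochondrial gene, and 14 of them are in the count table. Of these, 7 are pseudogenes side by side on the minus strand of chromosome 1, in a block of 4.66 kb (chr1:24611535-24616197). They follow the order of mt-Co1, mt-Co2, mt-Atp6, mt-Co3, mt-Nd3, mt-Nd4l and mt-Nd4 and face bases 6381 to 11042 of the mitochondrial chromosome, with an offset that shifts by 1 base along the block. No copy of mt-Atp8 is annotated there. Apart from the 43 bases it shares with mt-Atp6, it faces the gap between the copies of mt-Co2 and mt-Atp6, whose sequence was not examined here.

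The pseudogene that faces mt-Co2 is Gm28661 (chr1:24614885-24615565), and its 681 bases match mt-Co2 with 0 mismatches. Only the stop codon of mt-Co2 lies outside it. A second copy, Gm13341 on chromosome 2, shares 224 windows of 50 bases with mt-Co2 but differs at other positions, and had 0 counts in every library. The first 120 bases of the 3 sequences are shown because they are what a read from this gene would have to be told apart by. They are given 5′ to 3′ on the coding strand (mt-Co2, bases 7013 to 7132 of the plus strand of chromosome MT; Gm28661, chr1:24615446-24615565, minus strand; Gm13341, chr2:22587843-22587962, minus strand; mm10), with bases that differ from mt-Co2 in capitals.
mt-Co2: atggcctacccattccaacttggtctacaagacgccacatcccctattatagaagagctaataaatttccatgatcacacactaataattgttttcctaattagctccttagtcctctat
Gm28661: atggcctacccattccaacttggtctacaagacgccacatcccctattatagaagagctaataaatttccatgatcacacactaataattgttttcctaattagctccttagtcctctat
Gm13341: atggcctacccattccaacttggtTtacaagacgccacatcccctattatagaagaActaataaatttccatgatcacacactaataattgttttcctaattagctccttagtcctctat

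At the other end, the last 60 bases of mt-Co2 (bases 7637 to 7696) and the last 57 bases of Gm28661 (chr1:24614885-24614941, minus strand) show the 3 bases, in capitals, that only the mitochondrial gene annotation holds.
mt-Co2 end: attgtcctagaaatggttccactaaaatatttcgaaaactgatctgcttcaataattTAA
Gm28661 end: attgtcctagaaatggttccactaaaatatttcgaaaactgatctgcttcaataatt

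The share of a gene's 100-base windows with an identical copy in an annotated nuclear transcript was highest in genes of the lower tier, but did not separate the upper from the middle tier. It was 97.6 to 99.9% for 5 genes, mt-Co2, mt-Atp6, mt-Co3, mt-Nd3 and mt-Nd4l, whose mean per-kilobase levels were all at or below 0.603%. For mt-Co1 and mt-Nd4, copied over part of their length, it was 30.8% and 60.8%. The other 8 genes had at most 3.19% of their windows in an annotated copy, and of these mt-Rnr1 (0.742%) and mt-Atp8 (0.0079%) were low too. For mt-Atp8 this does not show that no copy exists, because the gap it faces on chromosome 1 was not examined. With windows of 150 bases the share of mt-Co2 was 99.4%, that of mt-Co1 23.6% and that of mt-Nd4 59.2%. The search covered annotated transcripts only, how reads that fit several places were counted is not given in the sources used here, and the part of the copies in the low counts was not tested. The levels of mt-Co2, mt-Atp6, mt-Co3, mt-Nd3, mt-Nd4l, mt-Co1 and mt-Nd4 are therefore uncertain. So is that of mt-Atp8, for which a copy was not looked for outside annotated transcripts.

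**Figure D3:**
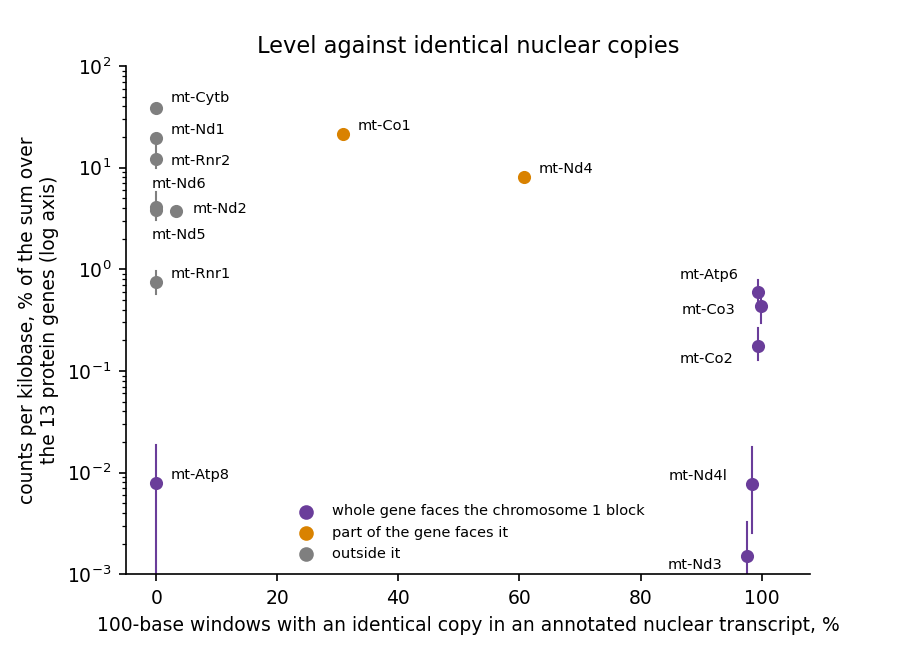
Mean per-kilobase level of each protein and rRNA gene (points; lines span the lowest to the highest of 4 libraries, and a line that reaches the lower edge goes to 0) against the percent of its 100-base windows that occur unchanged in an annotated nuclear transcript. Purple genes face the chromosome 1 block over their whole length, orange ones over a part, and grey ones lie outside it. The 5 genes above 97% lie at or below 0.603%. mt-Atp8 is low too, and it is drawn at 0% because no copy of it is annotated. The gap between annotated copies that it faces on chromosome 1 was not examined.

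The chromosome 1 pseudogenes themselves received counts, 605 and 2414 in total in the Sfrp4-/- libraries and 474 and 1368 in the WT libraries, or 0.386% and 0.663%, against 0.387% and 0.445%, of the mitochondrial counts. Gm28661 had 92 and 319 counts in Sfrp4-/- and 45 and 138 counts in WT cells, which is 0.767 and 0.672 of the counts of mt-Co2, against 0.570 and 0.645. The copy of mt-Co3, Gm28437, had 182 and 750 counts in Sfrp4-/- and 144 and 537 in WT cells, 0.520 and 0.640 of those of mt-Co3, against 0.689 and 0.689. Gm10925, the copy of mt-Atp6, had 235 and 1036 counts in Sfrp4-/- and 193 and 445 in WT cells. All 3 copies were higher in replicate 2 than in replicate 1 of either genotype, as were the genes they copy. Gm29216, which copies the end of mt-Co1, had 55 and 188 counts in Sfrp4-/- and 38 and 109 in WT cells. Gm28439, which copies the first 876 bases of mt-Nd4, had 25 and 60 in Sfrp4-/- and 35 and 86 in WT cells. For both pairs the copy had less than 0.5% of the counts of the mitochondrial gene.

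For mt-Nd3 the order was turned round. Its copy Gm28438 had 14 and 52 counts in Sfrp4-/- cells and 14 and 52 counts in WT cells, more than the 0 and 3, and 0 and 2, of mt-Nd3. The first 60 bases of both are shown because they hold the base at which the 2 sequences differ, in capitals (mt-Nd3, bases 9459 to 9518 of the plus strand of chromosome MT; Gm28438, chr1:24613060-24613119, minus strand). The 342 bases of mt-Nd3 that follow this base match the copy without a mismatch. Gm10222, the copy of mt-Nd4l, had 2 and 9 counts in Sfrp4-/- and 5 and 1 in WT cells, as few as the gene itself. Gm13340, on chromosome 2, copies parts of mt-Co1 and had 8 and 21 counts in Sfrp4-/- and 3 and 8 in WT cells.
mt-Nd3: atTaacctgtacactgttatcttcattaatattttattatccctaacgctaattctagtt
Gm28438: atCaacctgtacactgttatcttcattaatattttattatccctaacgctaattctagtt

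**Figure D4:**
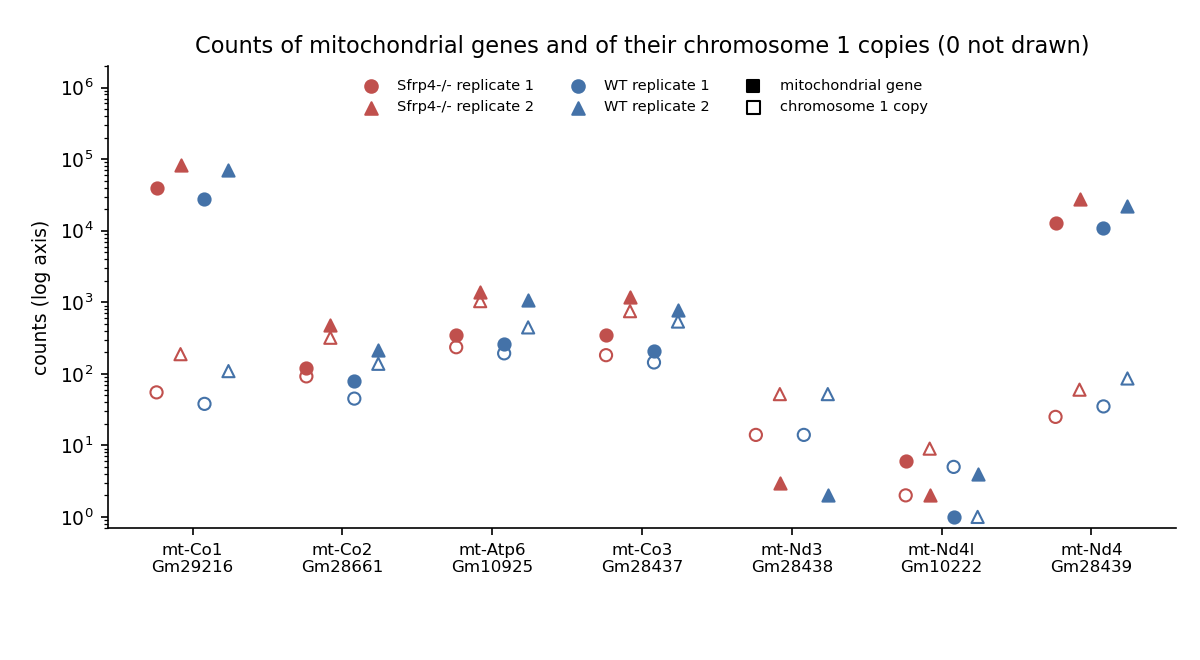
Counts of 7 mitochondrial genes (filled) and of their annotated copies on chromosome 1 (open) in each library, on a log axis where 0 is not drawn (Sfrp4-/- red, WT blue), with pairs in the order of the chromosome. The copies of mt-Co2, mt-Atp6 and mt-Co3 lie just under their genes, that of mt-Nd3 above it, and those of mt-Co1 and mt-Nd4 far below.

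The comparison of the genotypes over all genes found no mitochondrially encoded gene that passed the test. A filter on low counts kept 13 of the 37 members, 10 protein genes, both rRNA genes and mt-Te. With edgeR's quasi-likelihood test, 0 of the 13 had a Benjamini-Hochberg adjusted p under 0.05 (0% of all 13737 genes did), and 0 had an unadjusted p under 0.05 (2.12% of all genes). DESeq2 and limma-voom likewise called 0 members (0.0322% and 0% of all genes), as did edgeR without the filter (0.0919%) and with the replicate number as a block (0.00728%). The median log2 fold change, Sfrp4-/- minus WT, was 0.043 over the 13 members and 0.0031 over all genes. Of the 13 members, 9 lay above 0 (50.4% of all genes). They include mt-Te, which passed the filter through the Sfrp4-/- libraries. Over the 12 protein and rRNA members alone the median was 0.038, with 8 above 0. Without a library, the median over the members then tested was -0.53 (Sfrp4-/- replicate 2), -0.35 (WT replicate 1), 0.58 (Sfrp4-/- replicate 1) or 0.86 (WT replicate 2). Each of these fits has unequal replicate numbers in the genotypes.

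Highly counted members had fold changes near 0 with wide errors. mt-Cytb was at 2511 and 5714 CPM in Sfrp4-/- cells, against 2682 and 5355 CPM in WT cells, a log2 fold change of 0.033 ± 0.54 (SE). mt-Co1 was at 2131 and 4013 CPM in Sfrp4-/- and 1862 and 4100 CPM in WT cells (0.043 ± 0.52). For both genes the 2 replicate 2 libraries were high and the 2 replicate 1 libraries low, and the genotypes overlapped. mt-Nd1, mt-Nd4, mt-Nd5 and mt-Nd2 had log2 fold changes of 0.11 ± 0.56, 0.017 ± 0.46, -0.075 ± 0.43 and -0.030 ± 0.45, and the rRNA genes mt-Rnr2 and mt-Rnr1 of -0.26 ± 0.65 and -0.15 ± 0.61. Scaling by library totals alone gave 0.22 for mt-Nd2, 0.17 for mt-Nd5 and 0.093 for mt-Rnr1, on the other side of 0, while the median of all genes was then 0.24.

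The 2 members with the largest fold changes among the protein genes were mt-Co2 and mt-Nd6. mt-Co2 was at 6.48 and 23.1 CPM in Sfrp4-/- cells, against 5.27 and 12.5 CPM in WT cells (0.74 ± 0.67; edgeR adjusted p = 1.00). Without Sfrp4-/- replicate 2 its log2 fold change was -0.44. mt-Nd6 was at 183 and 237 CPM in Sfrp4-/- cells, against 124 and 192 CPM in WT cells (0.40 ± 0.35; edgeR adjusted p = 1.00), with Sfrp4-/- replicate 1 just below WT replicate 2. Without each library in turn the log2 fold change of mt-Nd6 was 0.13 to 0.75, and it alone of the 12 protein and rRNA members tested kept its sign. Leaving out a library, here and for mt-Co2, leaves unequal replicate numbers in the genotypes. Compared at the same replicate number, mt-Nd6, mt-Co2, mt-Co3, mt-Atp6 and mt-Nd1 were higher in Sfrp4-/- than in WT cells at both numbers. mt-Nd2 was lower at both, and mt-Rnr1, mt-Rnr2, mt-Co1, mt-Nd4, mt-Nd5 and mt-Cytb went both ways. mt-Co3 and mt-Atp6 had log2 fold changes of 0.35 ± 0.68 and 0.12 ± 0.74.

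mt-Te, the glutamate tRNA gene on the minus strand next to mt-Nd6, had 11 and 12 counts in Sfrp4-/- cells and 2 and 4 in WT cells. It was the only tested member with both Sfrp4-/- libraries above both WT libraries in CPM (15.0% of all genes), and 0 members had both below (12.6% of all genes). It passed the filter through the Sfrp4-/- libraries, and its log2 fold change was 1.64 ± 1.33 (edgeR adjusted p = 1.00). The other tRNA genes with at least 10 counts in all were mt-Tp, with 3 and 21 counts in Sfrp4-/- and 1 and 10 in WT cells, and mt-Tl1, with 4 and 11 in Sfrp4-/- and 3 and 2 in WT cells. Each of the remaining 19 tRNA genes had at most 9 counts over the 4 libraries.

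Against replicate number, by contrast, the members separated the libraries. In 12 of the 13 tested members both replicate 2 libraries lay above both replicate 1 libraries in CPM (24.9% of all genes), and in 0 members both lay below (24.8% of all genes). The members come from shared precursors and were counted in the same 4 libraries, so their number is not a number of replicates. Over the 12 protein and rRNA members the median ratio of replicate 2 to replicate 1 was 2.12 in Sfrp4-/- and 2.21 in WT cells. The log2 values were 1.09 and 1.15. For all genes the median log2 ratio was -0.00045 and -0.016, a value that TMM scaling sets near 0. Over the same 12 members the ratio of Sfrp4-/- to WT cells had medians of 1.10 at replicate 1 and 1.06 at replicate 2. In an edgeR fit of genotype and replicate number together, chosen after the data were seen, the term for replicate number called 5 of the 13 tested members, mt-Rnr2, mt-Nd1, mt-Rnr1, mt-Atp6 and mt-Co3 (adjusted p = 0.033 to 0.046; 1.86% of all genes were called). The labels do not say what a replicate number stands for.

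The ratio of replicate 2 to replicate 1 differed from gene to gene. Among the 12 protein and rRNA members it was lowest for mt-Nd6, at 1.30 in Sfrp4-/- cells and 1.55 in WT cells, and highest for mt-Atp6, at 3.63 and 3.54. mt-Co3 was at 3.02 in Sfrp4-/- and 3.26 in WT cells, and mt-Co2 at 3.57 and 2.37. Its range over mt-Nd1, mt-Nd2, mt-Co1, mt-Nd4, mt-Nd5 and mt-Cytb was 1.64 to 2.39 in Sfrp4-/- cells and 1.74 to 2.23 in WT cells. mt-Rnr2 and mt-Rnr1 differed between the genotypes, at 2.25 and 2.00 in Sfrp4-/- cells and 3.36 and 3.42 in WT cells, and that difference was not tested. Accordingly their Sfrp4-/- to WT ratio was 1.12 and 1.33 at replicate 1 and 0.753 and 0.779 at replicate 2.

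**Figure D5:**
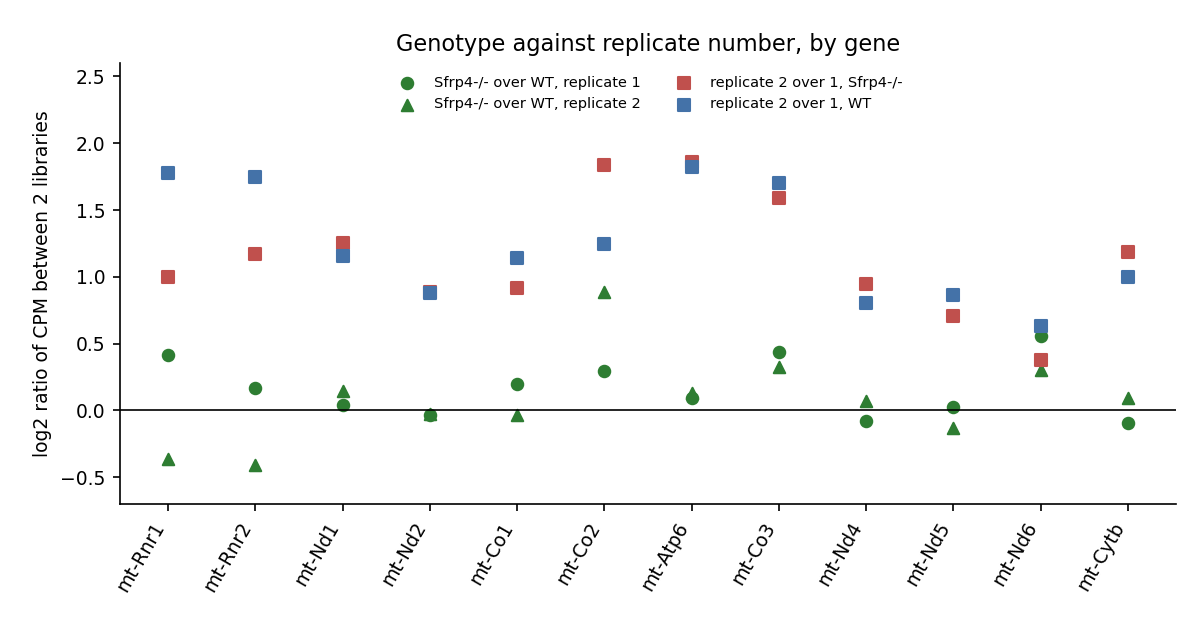
Log2 ratios of CPM between pairs of libraries for the 12 tested protein and rRNA genes, in gene order. Green points compare Sfrp4-/- with WT cells at replicate 1 (circles) and replicate 2 (triangles), and squares compare replicate 2 with replicate 1 in Sfrp4-/- (red) and WT (blue) cells. Squares lie above 0 for all 12 genes, while green points lie on both sides.

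Values of other features of the libraries, whose part in the mitochondrial levels was not tested, are given beside these. Marker lists are described by their summed CPM and by how many markers lay higher, or lower, in both replicate 2 than in both replicate 1 libraries (24.9% and 24.8% of all genes). Sparc, Col1a1 and Col1a2, which encode abundant bone matrix proteins, took 25.4% and 15.3% of the counts in Sfrp4-/- replicates 1 and 2 and 31.5% and 20.1% in WT replicates 1 and 2. All 9 erythroid markers were detected, and they summed to 2030 and 2643 CPM in Sfrp4-/- and 731 and 2148 CPM in WT cells, with 2 of the 9 higher and 0 lower in replicate 2, a share near that of all genes. The 7 macrophage and monocyte markers summed to 593 and 845 CPM in Sfrp4-/- and 423 and 925 CPM in WT cells, with 1 of the 7 higher and 1, Csf1r, lower in replicate 2. The 8 granulocyte markers summed to 990 and 1106 CPM in Sfrp4-/- and 405 and 784 CPM in WT cells, and members went both ways, with 2 higher and 2, Mpo and Elane, lower in replicate 2. The 4 B lineage markers summed to 38.0 and 53.5 CPM in Sfrp4-/- and 22.6 and 47.0 CPM in WT cells, with 2 higher and 0 lower in replicate 2. The 4 chondrocyte markers summed to 141 and 54.9 CPM in Sfrp4-/- and 439 and 93.2 CPM in WT cells, with 0 higher and 3 lower in replicate 2, Col10a1 being the exception. The 3 osteoclast markers summed to 3657 and 3205 CPM in Sfrp4-/- and 2734 and 3155 CPM in WT cells, with 2 higher and 1 lower in replicate 2. Endothelial markers summed to at most 9.20 CPM, and of 5 skeletal muscle markers, a tissue rich in mitochondria, Myh4 and Mb were at 0 and all 5 summed to at most 1.52 CPM.

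Nuclear genes that serve the mitochondrial chromosome did not pass the test. Of 40 such genes for its transcription, copying and RNA handling, 38 were tested and 0 were called, with 17 above and 21 below 0 and a median log2 fold change of -0.014, against 0.0031 over all genes. Tfam, which packages the chromosome and starts its transcription, was at 32.1 and 38.2 CPM in Sfrp4-/- cells, against 31.0 and 40.9 CPM in WT cells (-0.033 ± 0.31, SE). The polymerase gene Polrmt had a log2 fold change of 0.070 ± 0.51, and Lrpprc, whose product stabilises mitochondrial mRNAs, -0.17 ± 0.41. Of the 4 with the lowest p, Pnpt1, an exoribonuclease of mitochondria, was at 11.4 and 10.7 CPM in Sfrp4-/- and 12.4 and 24.2 CPM in WT cells (-0.73 ± 0.41). Tbrg4, the primase-polymerase gene Primpol and the coactivator gene Ppargc1b had log2 fold changes of 0.49 ± 0.52, 0.45 ± 0.51 and 0.78 ± 0.88. In this list 14 of 38 genes were higher in both replicate 2 libraries (24.9% of all genes) and 9 were lower (24.8% of all genes), with median log2 ratios of replicate 2 to replicate 1 of 0.10 in Sfrp4-/- and 0.089 in WT cells.

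Of 21 genes whose products assemble complex IV, the complex of mt-Co1, mt-Co2 and mt-Co3, 18 were tested and 0 were called. Their median log2 fold change was 0.11, with 10 above and 8 below 0. In 9 of the 18 both replicate 2 libraries were higher (24.9% of all genes) and in 3 both were lower (24.8% of all genes), and the median log2 ratio of replicate 2 to replicate 1 was 0.44 in Sfrp4-/- and 0.25 in WT cells, below the 1.09 and 1.15 of the mitochondrially encoded members.

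GC content of the 13 protein genes ran from 31.9% in mt-Atp8 to 41.1% in mt-Nd4l, with mt-Co2 at 38.6% and mt-Co1 at 39.9%. Among the protein genes, mt-Co3, mt-Nd4 and mt-Cytb end on a single T after the last whole codon, in which case the stop codon is completed by the poly(A) tail. Their last 40 bases are shown beside those of mt-Co1, which carries a whole stop codon, with stop bases in capitals (chromosome MT, plus strand, bases 9351 to 9390, 11505 to 11544, 15249 to 15288 and 6833 to 6872, in the order printed). These 3 genes stood in the lower, upper and highest tiers of level.
mt-Co3 end: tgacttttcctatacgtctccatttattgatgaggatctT
mt-Nd4 end: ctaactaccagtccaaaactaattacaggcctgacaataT
mt-Cytb end: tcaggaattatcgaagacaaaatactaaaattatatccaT
mt-Co1 end: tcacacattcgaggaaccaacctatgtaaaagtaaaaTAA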

How the data were processed

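Per the labels' protocols, RNA of the sorted cells was made into ultra-low-input, non-directional mRNA libraries with a SMARTer kit. The authors deposited raw counts per gene, with gene coordinates, lengths and biotypes. The submitters' processing notes name mm10 as the build and list featureCounts 1.00-p3, HISAT2 2.0.5, DESeq2 1.20.0 and CASAVA as tools. How featureCounts was set, and with which annotation, is not given there. Columns were matched to samples by the sheet's first line.

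Counts were tested with edgeR 4.0.16 (R 4.3.3): filterByExpr (13737 genes kept), TMM factors (0.989 and 1.19 in Sfrp4-/-, 0.877 and 0.972 in WT libraries), and the quasi-likelihood functions glmQLFit and glmQLFTest on a model of genotype alone, two-sided, and Benjamini-Hochberg adjustment over all genes at 0.05. The size of the log2 fold change over the root of F was taken as SE. Libraries differed beyond sampling noise (chi-square over its degrees of freedom, 40.8 to 169), and intervals cover counting error only. Identical windows of 50, 100 and 150 bases were searched on both strands in GENCODE M21 transcripts, from which printed sequences also come. Figures used matplotlib 3.10.9.

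Alternatives were other scalings, no filter, DESeq2 1.42.0, limma-voom (limma 3.58.1), the replicate number as a block, leaving out each library, and other numerators, denominators and lengths for shares and ratios. All protein and rRNA members are named, tRNA genes from 10 summed counts, nuclear copies from 10 summed counts, and of the transcription and RNA handling list Tfam, Polrmt, Lrpprc and the 4 genes of lowest p. Prorp, on that list, had no match in the table by symbol. Members and lists were chosen with earlier results of these data known.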

Additional observations from a re-analysis of the deposited data

How the results depend on the processing

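The count of 0 mitochondrially encoded genes called by genotype held under every alternative run, as did the 0 called in both nuclear lists, and the lowest adjusted p of the 12 protein and rRNA members over all alternatives was 0.618. Over all genes, 0 were called, against 20 with edgeR without the filter and 7 with DESeq2. Some signs turned, and the cause was not tested. Scaling by library totals alone, which put the median of all genes at 0.24, gave log2 fold changes of 0.093 for mt-Rnr1, 0.22 for mt-Nd2 and 0.17 for mt-Nd5, and limma-voom gave 0.022 for mt-Rnr1, -0.0043 for mt-Nd4 and -0.00021 for mt-Cytb. DESeq2 gave -0.00071 for mt-Nd4. The median log2 fold change over the members tested was 0.30 with library totals alone. It was 0.43 both without the filter and with DESeq2, where 26 members were tested, low-count ones among them. The remaining alternatives that kept all libraries gave 0.027 to 0.084.

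The replicate number as a block gave 1 genotype call over all genes, against 0 without it, and 0 among members either way. It gave 0.018 for mt-Rnr1, -0.0044 for mt-Nd4 and -0.00063 for mt-Cytb. Same-numbered libraries deviated from their group means together (r = 0.256 across 13737 genes, which are not independent replicates). Chi-square over its degrees of freedom was lowest between same-numbered libraries, at 40.8 for replicate 1 and 46.0 for replicate 2. Within a genotype it was 98.6 for Sfrp4-/- and 134 for WT cells, and it was 67.9 and 169 for the other pairs. There are only 2 same-numbered pairs, no label says what the number stands for, and its meaning was not tested.

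Leaving out each library in turn turned the sign of 11 of the 12 members, where the lone library of a genotype is assumed to vary like the others. The log2 fold changes then ran from -0.77 to 0.99 for mt-Rnr1, -0.95 to 0.86 for mt-Rnr2, -0.64 to 0.79 for mt-Nd1, -0.53 to 0.47 for mt-Nd2, -0.47 to 0.71 for mt-Co1, -0.44 to 1.48 for mt-Co2, -1.08 to 1.29 for mt-Atp6, -0.64 to 1.43 for mt-Co3, -0.52 to 0.46 for mt-Nd4, -0.46 to 0.41 for mt-Nd5 and -0.67 to 0.61 for mt-Cytb. The median over members ran from -0.53 to 0.86 and the log2 ratio of the mitochondrial share from -0.56 to 1.04. All 12 members were above 0 without WT replicate 2 or without Sfrp4-/- replicate 1. In the other direction, 10 of the 12 were below 0 without WT replicate 1 and 11 without Sfrp4-/- replicate 2. Leaving out any library leaves unequal replicate numbers in the genotypes. Other numerators and denominators gave 0.16 to 0.30 for the share.

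The ratio of mt-Co2 to mt-Co1 per length, 0.00828 on average, was 0.0138 with the counts of nuclear copies added and 1.22 with 100-base windows free of an annotated copy as length. Only 3 of 585 such windows of mt-Co2 are free of one, so the last value rests on 3 windows.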
